A study of Homo sapiens with 6 samples.

Results

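HADH and 9 other genes of mitochondrial fatty acid oxidation were followed in the beta-cell line EndoC-BH5, made from human pancreas. They were HADH, HADHA, HADHB, ACADM, ACADS, ACADVL, CPT1A, CPT2, ECHS1 and ACAA2, taken by gene symbol as 10 of the 60611 genes in the deposited table, and all 10 were found and tested. RNA was sequenced in 6 libraries of this single line, 3 replicates treated with interferon gamma together with IL1b and 3 replicates treated with vehicle. The labels give the genotype as WT for both groups, and the dose and length of the cytokine treatment are not stated in the labels. The comparison asked how these genes differed between cytokine and vehicle cultures. The genes were selected on values measured in these same libraries, since the change of cytokine over vehicle in the count columns was known when they were chosen, so their differences are given as a description with no p-value.

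Mitochondrial fatty acid oxidation shortens fatty acids in repeated rounds and yields acetyl-CoA and reduced electron carriers. Carnitine palmitoyltransferases bring long chains into the mitochondrion, and each round then needs an acyl-CoA dehydrogenase, an enoyl-CoA hydratase, a 3-hydroxyacyl-CoA dehydrogenase and a thiolase. HADH encodes the 3-hydroxyacyl-CoA dehydrogenase for short and medium chains, while HADHA and HADHB encode the subunits of the trifunctional protein, which acts on long chains. In beta cells HADH is also known to bind and restrain glutamate dehydrogenase, and its loss in people causes inherited hyperinsulinism.

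The promoter windows of HADH, HADHA and HADHB are shown because HADH was the gene with the largest difference, and because HADHA and HADHB start head to head yet differed in their change. Each runs from 250 bases before to 50 bases after the annotated start (RefSeq, GRCh38.p14), is written 5′ to 3′ on the strand of its gene, and carries capitals where the GC box letters GGGCGG lie on either strand. The first HADH window is chr4:107989639-107989938 on the plus strand, that of HADHA chr2:26244583-26244882 on the minus strand and that of HADHB chr2:26244689-26244988 on the plus strand.
HADH: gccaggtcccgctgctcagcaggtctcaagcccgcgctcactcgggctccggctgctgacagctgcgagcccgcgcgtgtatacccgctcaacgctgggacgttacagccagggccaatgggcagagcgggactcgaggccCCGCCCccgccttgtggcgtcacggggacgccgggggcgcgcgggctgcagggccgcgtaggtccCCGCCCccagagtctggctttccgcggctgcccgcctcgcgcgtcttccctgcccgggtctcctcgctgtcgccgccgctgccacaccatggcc
HADHA: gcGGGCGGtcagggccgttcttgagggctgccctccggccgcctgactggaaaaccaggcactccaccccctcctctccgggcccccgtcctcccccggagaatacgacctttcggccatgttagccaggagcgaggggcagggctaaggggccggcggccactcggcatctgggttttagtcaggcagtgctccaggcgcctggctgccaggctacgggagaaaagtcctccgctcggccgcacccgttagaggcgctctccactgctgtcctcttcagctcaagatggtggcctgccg
HADHB: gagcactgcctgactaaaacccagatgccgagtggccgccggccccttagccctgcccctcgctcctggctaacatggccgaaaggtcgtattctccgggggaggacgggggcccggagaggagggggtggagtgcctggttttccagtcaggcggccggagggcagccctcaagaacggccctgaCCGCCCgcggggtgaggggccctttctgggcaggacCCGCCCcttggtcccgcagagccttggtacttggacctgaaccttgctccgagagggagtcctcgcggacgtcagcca
The HADHA and HADHB start sites lay 307 bases apart on opposite strands, so their windows shared 194 bases. GC content was 74.3% in the HADH window, 67.7% in that of HADHA and 68.0% in that of HADHB. A GC box stood in 8 of the 12 windows of the 10 genes and in 45.0% of all 35116 windows of this length. The core of the interferon response element, TTTC followed by any 2 bases and TTTC, was found in 0 of the 12 windows and in 3.57% of all windows. The STAT motif TTCNNNGAA stood in 1 of the 12, that of ACADS, and in 7.66% of all windows. The CCAAT box stood in 1 of the 12, the HADH window shown, and in 34.6% of all windows. The FOXA motif TGTTTAC (3.42% of all windows), the nuclear receptor core motif AAGGTCA (3.92%), the cyclic AMP element TGACGTCA (1.85%) and the NRF1 motif (1.24%) were found in 0 of the 12. Both strands were searched, and in the HADH window the CCAAT box and the GC boxes did not overlap. A match is a description of letters and not of binding.

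Total counts were 13689972 to 16175364 in cytokine libraries and 5871481 to 15894082 in vehicle libraries. The smallest count of any of the 10 genes in any library was 52, for CPT1A. All 12 beta-cell markers, INS and PDX1 among them, were detected in every library. Of these markers 5 were called higher and 7 lower, and their summed level ranged from 32842 to 33598 CPM in cytokine libraries and from 22666 to 23791 CPM in vehicle libraries. Of 18 markers of other cells, 11 stayed under 1 CPM in the mean of both groups, with PRSS1 at 0 counts throughout, 1 was called higher (CD68, at 21.4 CPM with cytokines and 5.19 CPM with vehicle) and 2 lower (GCG and KRT19). The summed level of those 18 markers, carried mainly by SST, ranged from 747 to 793 CPM in cytokine libraries and from 741 to 825 CPM in vehicle libraries. The part of these markers in the results below was not tested, and in bulk RNA fewer cells of a type and less RNA per cell cannot be told apart. Levels are given as CPM with TMM factors, so that libraries of different depth can be compared. A change is the log2 fold change, cytokine over vehicle, and its standard error (SE) comes from a fit across all genes. IRF1, an interferon response factor, had 1229 ± 28.4 CPM in cytokine libraries and 20.1 ± 0.767 CPM in vehicle libraries (SD, n = 3 each), a log2 change of 5.94 (edgeR, adjusted p = 6.8e-34).

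HADH had the largest difference of the 10. It stood at 208, 209.6 and 214 CPM in cytokine libraries 1, 2 and 3, against 596, 583 and 564 CPM in vehicle libraries 1, 2 and 3. The libraries did not overlap, and the highest cytokine value lay far below the lowest vehicle value. The means were 210.5 ± 3.05 CPM with cytokines and 580.9 ± 16.2 CPM with vehicle (SD, n = 3 each), a log2 change of -1.46 with SE 0.0404, or 2.76-fold lower. Of the 5140 genes called lower in the fit across all genes, 269 fell by at least as much, HADH included. Among the 107 genes with a vehicle level at least that of HADH, 2 were called lower by at least as much, again with HADH among them. Both limits are the values of HADH itself, which was chosen with its change known, so these counts only describe its place. IGFBP5, with 443 CPM in vehicle libraries and a log2 change of -1.47, fell as much but lay under that level. The levels compared here are CPM without correction for gene length. In the authors' deposited table the log2 fold change of HADH was -1.46. HADH lies on chromosome 4 at 107989714 to 108035175 on the plus strand in GRCh38 and overlapped no other annotated gene.

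Of the 10 genes, 4 were called lower, 1 higher and 5 did not pass an adjusted p of 0.05 in the edgeR quasi-likelihood fit. Across all 17863 tested genes 57.1% were called, 28.8% lower and 28.3% higher. Cytokine and vehicle libraries were fully apart in 5 of the 10 genes and in 61.0% of all tested genes. HADH was the 1 gene of the 10 that was called and at least 2-fold lower, against 4.28% of all tested genes. The median log2 change was -0.060 over the 10 genes and -0.018 over all tested genes. The authors' deposited table listed 4 of the 10 as lower and 0 as higher at a false discovery rate under 0.05. With scaling by library size alone the log2 change of the median gene moved by -0.20, and 8 of the 10 were then called lower and 0 higher, against 49.2% lower and 16.7% higher among all tested genes.

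**Figure D1:**
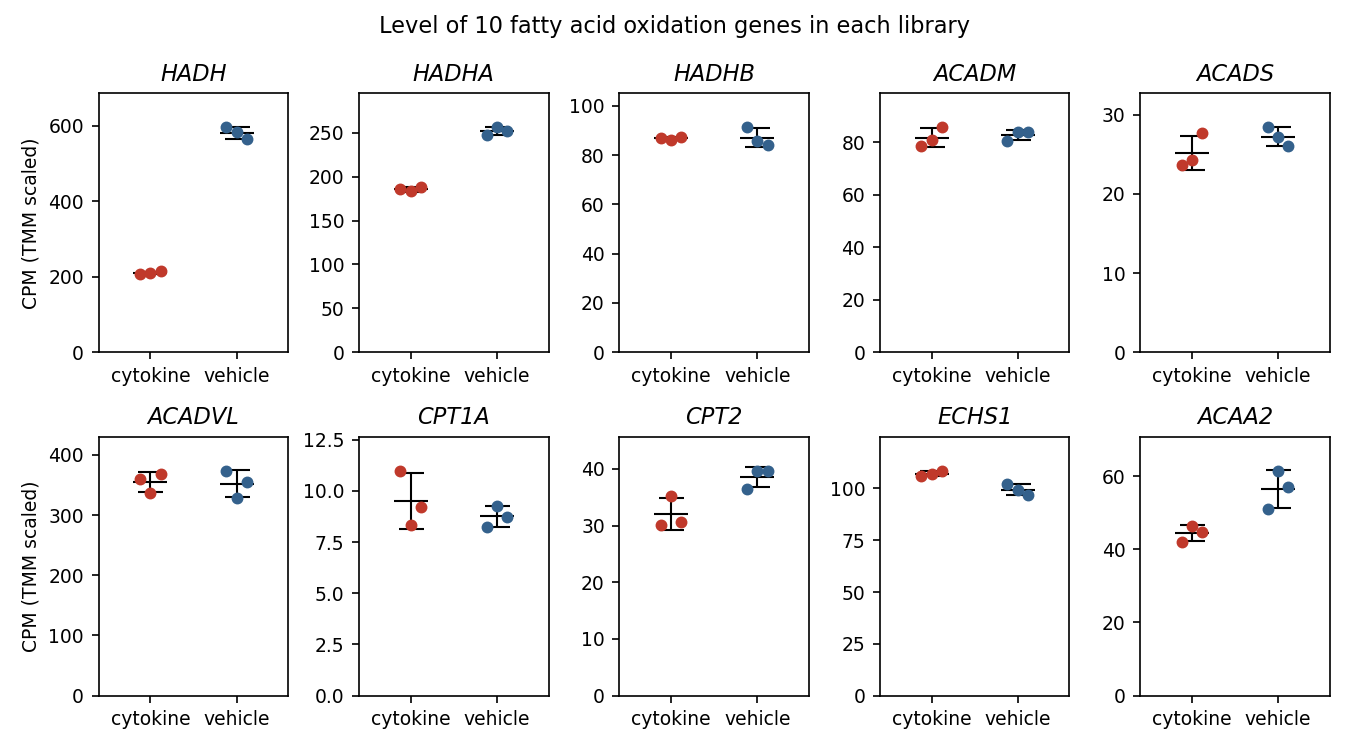
Level of each of the 10 genes in TMM-scaled CPM on linear axes that start at 0, with 3 cytokine libraries (red) and 3 vehicle libraries (blue) as points and the mean ± SD as a black line and bar. HADH sits near 210.5 CPM with cytokines and 580.9 CPM with vehicle, while HADHB, ACADM and ACADVL have overlapping points.

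The subunits of the trifunctional protein differed from each other. HADHA, the alpha subunit with hydratase and long-chain 3-hydroxyacyl-CoA dehydrogenase activity, had 185, 183 and 189 CPM in cytokine libraries, against 247, 256 and 252 CPM in vehicle libraries. All cytokine values lay below all vehicle values, with a log2 change of -0.44 (SE 0.0412), or 1.36-fold lower. HADHB, the thiolase subunit, had 86.9, 86.3 and 87.3 CPM in cytokine libraries, against 91.3, 85.6 and 84.1 CPM in vehicle libraries. Its cytokine libraries lay inside the vehicle range, with a log2 change of 0.0075 (SE 0.0488) that turned to -0.19 with scaling by library size alone and to -0.018 without vehicle replicate 3.

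A ratio of counts within a library needs no scaling between libraries. HADHA over HADHB was 2.13, 2.12 and 2.16 in cytokine libraries, against 2.704, 2.99 and 3.00 in vehicle libraries. The groups did not overlap, and the mean log2 ratio was 1.10 ± 0.0130 with cytokines and 1.53 ± 0.0852 with vehicle (SD, n = 3 each). HADH over HADHA was 1.12, 1.14 and 1.13 in cytokine libraries, against 2.41, 2.28 and 2.24 in vehicle libraries. The mean log2 ratio of HADH over HADHA was 0.18 ± 0.0137 with cytokines and 1.21 ± 0.0573 with vehicle, a difference of -1.03. HADH over HADHB was 2.40, 2.43 and 2.45 in cytokine libraries, against 6.53, 6.81 and 6.71 in vehicle libraries. The 3 genes therefore changed unequally under any scaling between libraries. HADHA lies on chromosome 2 at 26190635 to 26244726 on the minus strand and HADHB at 26243170 to 26290468 on the plus strand. Their spans overlap, but their annotated exons share 0 bases.

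**Figure D2:**
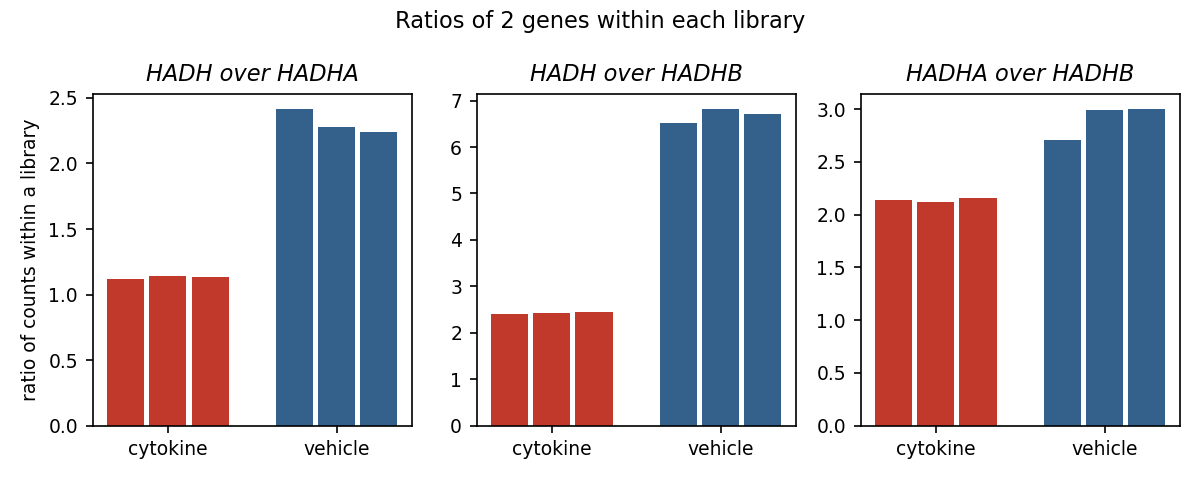
Ratio of the counts of 2 genes within each library for HADH over HADHA, HADH over HADHB and HADHA over HADHB, 1 bar a library, cytokine libraries in red and vehicle libraries in blue. All 3 ratios are lower in each cytokine library than in any vehicle library.

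CPT1A and CPT2 encode the carnitine palmitoyltransferases of the outer and inner mitochondrial membrane. CPT2 had 30.1, 35.2 and 30.6 CPM in cytokine libraries, against 36.5, 39.6 and 39.7 CPM in vehicle libraries. The groups did not overlap, though cytokine replicate 2 came close to vehicle replicate 1, and the log2 change was -0.29 (SE 0.0688). An antisense gene shares 11.0% of the annotated exon bases of CPT2, and no source used here gives the strand setting of the counting, so its value is uncertain. CPT1A, the entry step that malonyl-CoA inhibits, had 11.0, 8.33 and 9.20 CPM in cytokine libraries, against 8.26, 9.28 and 8.72 CPM in vehicle libraries. The groups overlapped, with a log2 change of 0.12 (SE 0.116) that turned to -0.084 with scaling by library size alone. CPT2 lies on chromosome 1 at 53196429 to 53214197 on the plus strand, and CPT1A on chromosome 11 at 68754620 to 68844410 on the minus strand (GRCh38).

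The acyl-CoA dehydrogenases ACADVL, ACADM and ACADS start each round on very long, medium and short chains. None of the 3 passed the threshold (edgeR), and their libraries overlapped. ACADVL had 361, 336 and 369 CPM in cytokine libraries, against 374, 328 and 355 CPM in vehicle libraries, a log2 change of 0.016 (SE 0.0462). ACADM had 78.5, 80.9 and 85.7 CPM in cytokine libraries, against 80.5, 83.8 and 84.0 CPM in vehicle libraries, a log2 change of -0.024 (SE 0.0503). Both changes were smaller than their SE. ACADS had 23.7, 24.3 and 27.7 CPM in cytokine libraries, against 28.4, 27.2 and 26.0 CPM in vehicle libraries, a log2 change of -0.095 (SE 0.0747). With scaling by library size alone all 3 were called lower, at -0.19 for ACADVL, -0.23 for ACADM and -0.30 for ACADS. The sign for ACADVL also turned without vehicle replicate 2 (-0.019), and that for ACADM without cytokine replicate 1 (0.017). ACADVL lies on chromosome 17 at 7217125 to 7225273, ACADM on chromosome 1 at 75724347 to 75787575 and ACADS on chromosome 12 at 120725735 to 120740008, all on the plus strand. Neighbouring genes share 1.75% of the exon bases of ACADVL, on the opposite strand, and 3.28% of those of ACADM, on the same strand.

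ECHS1, the short-chain enoyl-CoA hydratase of the step before HADH, had 106, 107 and 109 CPM in cytokine libraries, against 102, 99.4 and 96.7 CPM in vehicle libraries. Its log2 change was 0.12 (SE 0.0464), and it was the single gene of the 10 called higher. That call was lost with DESeq2, with no filter on low counts, with the replicate number as a block, at an adjusted p of 0.01, without vehicle replicate 3 (log2 change 0.095) and without cytokine replicate 2 (0.12), and the sign turned to -0.087 with scaling by library size alone. ACAA2, the thiolase of the last step, had 42.1, 46.5 and 44.8 CPM in cytokine libraries, against 51.0, 61.5 and 57.1 CPM in vehicle libraries. Its cytokine libraries all lay below the vehicle ones, with a log2 change of -0.36 (SE 0.0632), and 7.59% of its exon bases are shared with another annotated gene on the same strand. ECHS1 lies on chromosome 10 at 133362480 to 133373689 and ACAA2 on chromosome 18 at 49782167 to 49813960, both on the minus strand.

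**Figure D3:**
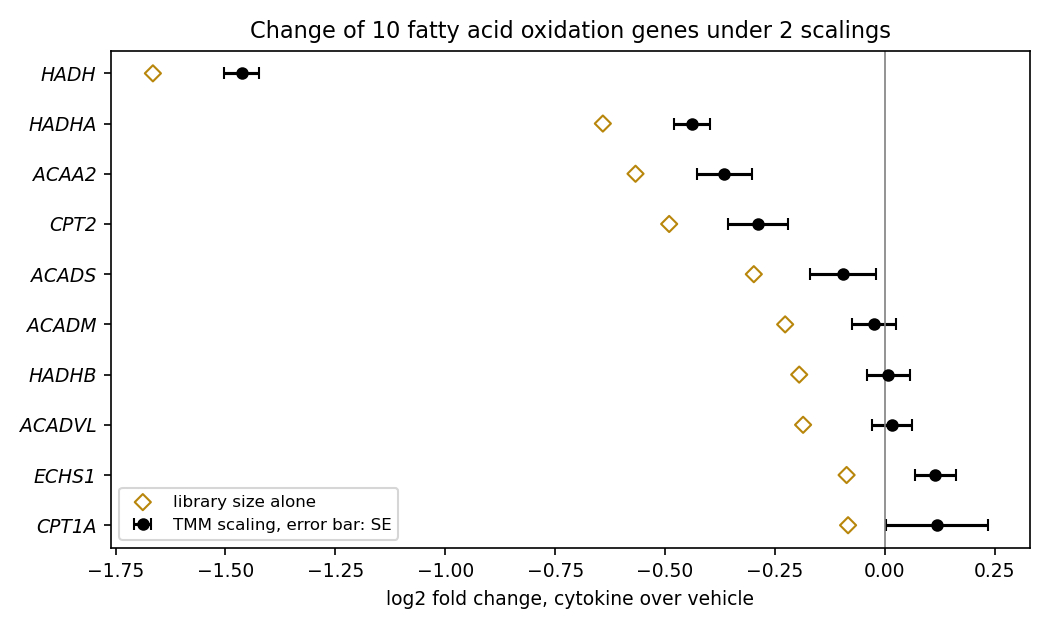
Log2 fold change of cytokine over vehicle for the 10 genes, with TMM scaling as filled points with SE bars and with scaling by library size alone as open diamonds. HADH stands apart at -1.46, and scaling by library size alone moves every gene to the left, which puts all 10 below 0.

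Levels of different genes were compared as CPM per kilobase, and the place of HADH depended on the length used, because its annotated exons cover 12086 bases, its longest transcript 6541 and its principal transcript 1912. Per kilobase of all annotated exons, HADH had 17.4 ± 0.252 in cytokine libraries, the fifth of the 10 genes, and 48.1 ± 1.34 in vehicle libraries, the fourth. With the length of the principal transcript it had 110.1 ± 1.59 in cytokine libraries, the second after ACADVL at 153 ± 7.24, and 304 ± 8.49 in vehicle libraries, the first before ACADVL at 152 ± 9.81 (SD, n = 3 each). CPT1A was last with each of these lengths, at 1.45 ± 0.206 CPM per kilobase of exons with cytokines and 1.33 ± 0.0779 with vehicle. Per kilobase of exons, neighbours whose libraries overlapped were HADH and ACADM with cytokines, and ACAA2 and ACADS in both groups.

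HADH made up 6.72% ± 0.0828 of the summed per-kilobase level of the 10 genes in cytokine libraries and 15.8% ± 0.272 in vehicle libraries (SD, n = 3 each). With principal transcript lengths the share was 21.9% ± 0.267 with cytokines and 42.3% ± 0.592 with vehicle. The summed level of the 10 genes was 14.5% lower with cytokines with exon lengths and 30.1% lower with principal transcript lengths. Without HADH, the sum of the other 9 was 5.26% lower with exon lengths and 5.44% lower with principal transcript lengths. With exon lengths that sum was 242 ± 5.51 with cytokines and 255 ± 3.97 with vehicle. HADHA within it was 42.4 with cytokines and 57.4 with vehicle, so the lower sum does not describe the 9 genes alike. All these sums use TMM scaling, and scaling by library size alone moved the log2 change of the median gene by -0.20.

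The genes most like HADH across the 6 libraries, by the root mean square distance of log2 levels centred on each gene, were C1orf127 at 0.0410, IGFBP5 at 0.0528 and CDHR1 at 0.0566. IGFBP5, which encodes a binding protein of insulin-like growth factors, had 159, 167 and 155 CPM in cytokine libraries, against 440.1, 438 and 451 CPM in vehicle libraries. C1orf127 had 18.8 ± 0.404 CPM with cytokines and 52.6 ± 3.08 CPM with vehicle, and CDHR1, a cadherin-related gene, 51.8 ± 1.97 CPM with cytokines and 138 ± 8.14 CPM with vehicle. With 2 groups, this measure mainly finds genes with the same fold change.

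Beyond the 10 genes, 104 genes of connected steps were listed in 13 groups by role. Of these, 95 were tested, 14 rose, 45 fell and 36 did not pass (edgeR). Among all tested genes 28.3% were called higher and 28.8% lower. When libraries were scaled by size alone, 8 of the 95 were called higher and 67 lower, against 16.7% higher and 49.2% lower among all tested genes. DESeq2 with its own filter called 13 listed genes higher and 31 lower, and 4288 higher and 3365 lower among all genes. An adjusted p of 0.01 left 14 higher and 37 lower, beside 4355 higher and 4114 lower among all tested genes. Without cytokine replicate 1, 14 were higher and 37 lower, beside 4862 higher and 4557 lower. The median log2 change was -0.18 over the 95 genes and -0.018 over all tested genes. The coactivator gene PPARGC1A and the dehydrogenase gene ACADL were among the 9 genes with too few counts to be tested.

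**Figure D4:**
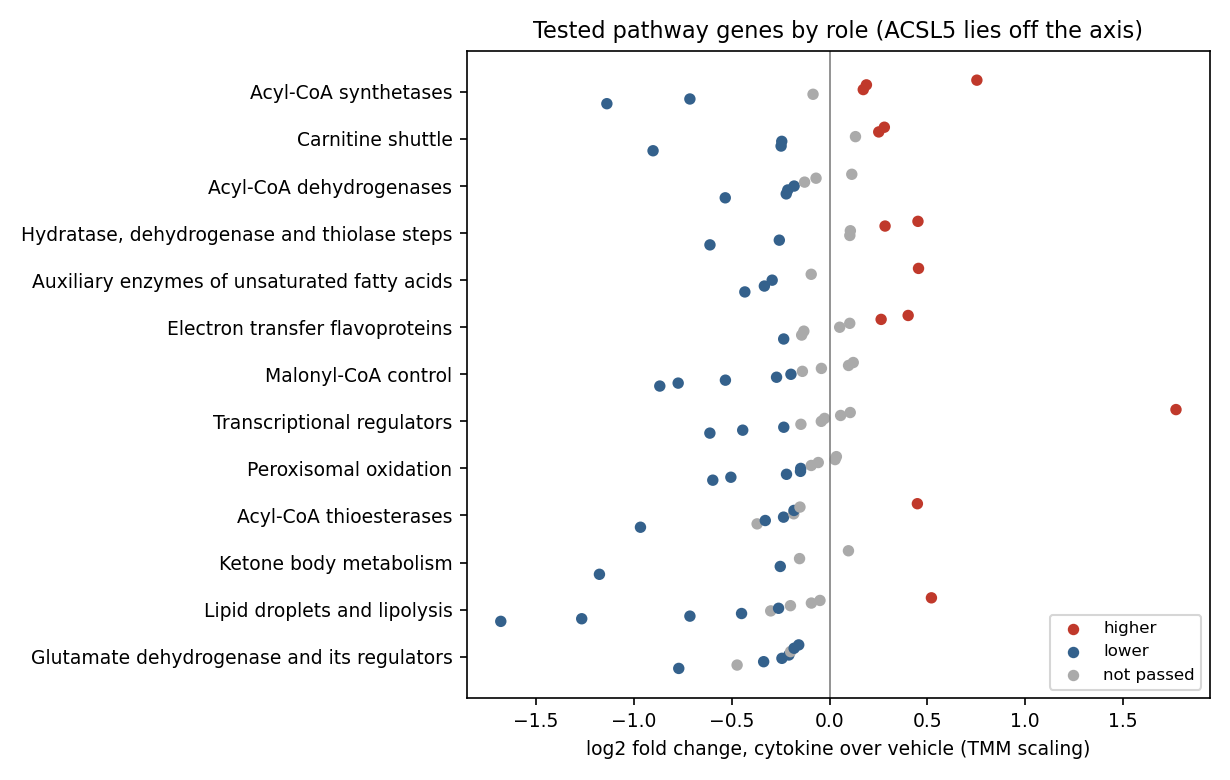
Log2 fold change of cytokine over vehicle (TMM scaling) for the tested genes of 13 role groups outside the 10 genes, 1 point a gene, red for genes called higher, blue for genes called lower and grey for genes that did not pass. ACSL5 is not drawn, and PDK4 stands furthest to the right at 1.77.

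Genes of fatty acid activation and entry were called in both directions, as were all tested genes, at 28.3% higher and 28.8% lower. When scaled by size alone, 16.7% of all tested genes were higher and 49.2% lower. Of 7 acyl-CoA synthetase genes, which activate fatty acids, 4 rose and 2 fell, and 2 were higher and 3 lower when scaled by size alone. ACSL1 had 153 ± 3.25 CPM in cytokine libraries and 90.3 ± 4.91 CPM in vehicle libraries, a log2 change of 0.75 (edgeR, adjusted p = 8.7e-14). ACSL5 had 24, 18 and 16 counts in cytokine libraries, against 0, 0 and 0.5 in vehicle libraries, a ratio of 47.8 with a 95% exact interval from 8.25 to 1922 that covers counting error only and takes the 0.5 as 1 count. Its fitted log2 change was 5.17, and 7.05 without vehicle replicate 3, where the remaining vehicle libraries are at 0 and the fitted value is no bound. ACSF2 fell by 1.14 on the log2 scale (edgeR, adjusted p = 2.6e-07). Of 6 genes of carnitine transport, 2 rose and 3 fell, and 0 were higher and 3 lower when scaled by size alone. The carnitine transporter gene SLC22A5 rose by 0.28 and CPT1B by 0.25, and both calls were lost with that scaling. CPT1B is uncertain because annotated readthrough with its neighbour CHKB can share reads. CROT, the peroxisomal carnitine octanoyltransferase, fell by 0.90 (edgeR, adjusted p = 1.9e-06).

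Of 7 tested genes of other acyl-CoA dehydrogenases, 4 fell and 0 rose, against 28.8% lower and 28.3% higher among all tested genes. When scaled by size alone, 6 were lower and 0 higher, against 49.2% lower and 16.7% higher among all tested genes. ACADSB, which acts on short branched chains, had 19.5 ± 1.34 CPM in cytokine libraries and 28.3 ± 1.08 CPM in vehicle libraries (edgeR, adjusted p = 5.9e-07). ACAD9, also an assembly factor of respiratory complex I, fell by 0.21, and ACAD10 by 0.22, a call lost with DESeq2 and without vehicle replicate 1 (log2 change -0.13) or cytokine replicates 1 (-0.17) or 2 (-0.20). Among 6 further genes grouped with the hydratase, dehydrogenase and thiolase steps, 2 rose and 2 fell, and 1 was higher and 2 lower when scaled by size alone. HSD17B10, another mitochondrial 3-hydroxyacyl-CoA dehydrogenase, had 88.4 ± 6.71 CPM with cytokines and 65.1 ± 2.52 CPM with vehicle, a log2 change of 0.45 (edgeR, adjusted p = 8.9e-08), so it rose where HADH was lower. ECHDC2 fell by 0.61, and ECHDC1, an ethylmalonyl-CoA decarboxylase, rose by 0.28, a call lost when scaled by size alone. Of 5 genes of auxiliary enzymes for unsaturated fatty acids, the dienoyl-CoA reductase gene DECR1 rose by 0.45 and 3 fell, among them DECR2 by 0.43 and ECI1 by 0.33. With scaling by size alone, 1 of these was higher and 4 lower. The shares among all tested genes given above stand beside the counts of each group here.

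The group of the electron transfer flavoproteins, which pass electrons from the dehydrogenases to the respiratory chain, also held genes of other roles. Its 7 genes mostly did not pass, with 2 higher and 1 lower, and 1 was higher and 2 lower when scaled by size alone. Among all tested genes the shares were 28.3% higher and 28.8% lower, or 16.7% higher and 49.2% lower by size alone. The 2 higher genes, SLC25A32 and FLAD1, do not encode electron transfer flavoproteins. ETFA had 48.6 ± 1.000 CPM with cytokines and 45.7 ± 2.87 CPM with vehicle (edgeR, adjusted p = 0.14). ETFDH, the oxidoreductase of that chain, fell by 0.23. SLC25A32, a mitochondrial folate and flavin carrier, rose by 0.40, and FLAD1, the synthase of the flavin cofactor, by 0.26, a call lost with DESeq2, with scaling by library size alone and without vehicle replicate 3 (log2 change 0.16).

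Of 9 genes around malonyl-CoA, the inhibitor of CPT1, 5 fell and 0 rose, against 28.8% lower and 28.3% higher among all tested genes. When scaled by size alone, 7 were lower and 0 higher, against 49.2% lower and 16.7% higher among all tested genes. The acetyl-CoA carboxylase genes, which make malonyl-CoA, were both among the 5 that fell. ACACA had 189 ± 11.8 CPM in cytokine libraries and 273 ± 4.54 CPM in vehicle libraries, and ACACB 27.4 ± 2.15 CPM in cytokine libraries and 47.2 ± 1.84 CPM in vehicle libraries (edgeR, adjusted p = 5.0e-11 and 7.2e-11). PRKAB2, a subunit of AMP-activated protein kinase, fell by 0.87 (edgeR, adjusted p = 1.7e-12). Of the other listed subunit genes of this kinase, PRKAG1 fell by 0.20 and PRKAG2 by 0.27. PRKAA1 (log2 change -0.042), PRKAA2 (0.097) and PRKAB1 (-0.14) did not pass. MLYCD, which degrades malonyl-CoA, did not pass, with 24.4 CPM in cytokine libraries and 22.8 CPM in vehicle libraries (edgeR, adjusted p = 0.21).

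In a group of 9 tested genes, made up of transcriptional regulators and the target gene PDK4, 1 rose and 3 fell. Among all tested genes 28.3% were called higher and 28.8% lower. When scaled by size alone, 1 was higher and 7 lower, against 16.7% higher and 49.2% lower among all tested genes. The gene that rose was PDK4, and none of the regulators did. PDK4, a kinase that restrains pyruvate dehydrogenase and is known as a target of fatty acid sensing receptors, had 99.2, 114 and 102 CPM in cytokine libraries, against 27.0, 31.1 and 32.3 CPM in vehicle libraries. The groups did not overlap, with a log2 change of 1.77 (SE 0.0656; edgeR, adjusted p = 3.0e-19), or 3.41-fold higher. PPARA, a fatty acid receptor gene active in liver, had 50.4 ± 5.40 CPM with cytokines and 51.4 ± 2.77 CPM with vehicle and did not pass. PPARD fell by 0.61 (edgeR, adjusted p = 2.9e-07) and its partner RXRA by 0.44.

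In peroxisomes, 5 of 9 tested genes fell and 0 rose, against 28.8% lower and 28.3% higher among all tested genes. When scaled by size alone, 8 were lower and 0 higher, against 49.2% lower and 16.7% higher among all tested genes. Those that fell included PHYH, of phytanic acid oxidation, at -0.60, the bifunctional enzyme gene EHHADH at -0.50 and SCP2 at -0.22. Of 8 tested acyl-CoA thioesterase genes, 1 rose and 4 fell, and 1 was higher and 6 lower when scaled by size alone. The shares among all tested genes given above stand beside these counts too. ACOT7 rose by 0.45 and ACOT11 fell by 0.97, and ACOT2 at -0.33 is uncertain because its near-identical neighbour ACOT1 can share reads. Its call was lost with DESeq2 and without vehicle replicate 1 (log2 change -0.22) or cytokine replicates 1 (-0.24) or 3 (-0.26). Of 4 tested genes of ketone body metabolism, BDH2 fell by 1.18 and OXCT1 by 0.25, and 0 rose. With scaling by size alone, 3 of that group were lower and 0 higher, beside the same shares.

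Of 10 tested genes of lipid droplets and lipolysis, 5 fell and 1 rose, against 28.8% lower and 28.3% higher among all tested genes. When scaled by size alone, 9 were lower and 1 higher, against 49.2% lower and 16.7% higher among all tested genes. The lipolysis inhibitor gene G0S2 had 0.463 ± 0.115 CPM in cytokine libraries and 1.44 ± 0.540 CPM in vehicle libraries (edgeR, adjusted p = 0.00019). These levels rested on only 5, 7 and 7 counts with cytokines and 6, 22 and 23 with vehicle. PLIN5, a droplet coat protein gene, had 0.844 ± 0.111 CPM with cytokines and 2.01 ± 0.101 CPM with vehicle. Its log2 change of -1.27 (SE 0.262) rested on 9.5 to 12.5 counts a library with cytokines and 12 to 35.5 with vehicle. DGAT2, of triglyceride synthesis, fell by 0.71. ABHD5, which activates triglyceride lipase, rose by 0.52.

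The glutamate dehydrogenase group had 6 of 8 genes lower and 0 higher, against 28.8% lower and 28.3% higher among all tested genes. When scaled by size alone, 7 were lower and 0 higher, against 49.2% lower and 16.7% higher among all tested genes. GLUD1, whose product HADH is known to bind, had 98.2 ± 2.59 CPM in cytokine libraries and 113 ± 3.53 CPM in vehicle libraries, a log2 change of -0.21 (SE 0.0469; edgeR, adjusted p = 0.00041), with the near-identical GLUD2 able to share its reads. GLS2, a glutaminase, fell by 0.77, SIRT5, a mitochondrial desuccinylase gene, by 0.34, a call lost with DESeq2, and GOT2, the mitochondrial aspartate aminotransferase gene, by 0.24. For scale, INS had 3641 ± 291 CPM with cytokines and 4011 ± 163 CPM with vehicle, with overlapping libraries (edgeR, adjusted p = 0.0094), a call lost with DESeq2, without vehicle replicate 2 (log2 change -0.094) and without cytokine replicate 1 (-0.075). IAPP, the islet amyloid peptide gene, had 8238 ± 208 CPM with cytokines and 3997 ± 193 CPM with vehicle.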

How the data were processed

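Per the labels' protocols, RNA was extracted with a Nucleospin kit and libraries were prepared with a directional NEBNext kit. The submitters' processing notes name cutadapt 2.10, STAR 2.7.5a, HTSeq 0.12.4 and GRCh38 without roles. The authors deposited an estimated count per gene and library, not normalised and not always whole, per the file headers and values. Their own comparison is deposited too, with a log2 fold change and log2 level, a score (F), and a p-value and FDR for each gene, of which the log2 fold change and FDR are printed. Columns named NT were taken as vehicle.

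Counts were rounded to the nearest whole number, filtered with filterByExpr to 17863 genes and tested with edgeR 4.0.16 (R 4.3.3) using TMM scaling, a robust quasi-likelihood fit on group and Benjamini-Hochberg adjustment over all tested genes at 0.05. The SE is the log2 change divided by the square root of F. Exon lengths came from GENCODE 29 on GRCh38 and promoter windows from RefSeq, which held all 10 genes. The 10 genes and the lists were chosen with earlier results of these data known. The text names, in each role group, the 3 called genes with the largest change and at least 1 CPM in the higher group, the 3 genes nearest to HADH with at least 10 CPM, and GLUD1, INS, IAPP and IRF1. ETFA, PPARA, MLYCD, ABHD5, PRKAA1, PRKAA2, PRKAB1, PRKAG1, PRKAG2, PPARGC1A and ACADL lie outside that rule and were picked with their values known. The labels do not say whether replicates were separate cultures, so the spread behind a p-value is that between these samples and may be technical. That spread was small, at 3.46% beyond counting error as a common value over genes in the fit, and its source was not tested. Scripts were tested on simulated data. Alternatives were other scalings, DESeq2 1.42.0, other filters, a replicate block, leaving out each library, and a threshold of 0.01. Intervals cover counting error only.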

Additional observations from a re-analysis of the deposited data

How the results depend on the processing

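HADH, HADHA, CPT2 and ACAA2 kept their call and direction in all 12 alternatives run for each gene, and the log2 change of HADH lay between -1.67 and -1.44. Scaling by library size alone called 2980 genes higher and 8791 lower, 8 of the 10 genes lower and 0 higher, and 8 of the listed pathway genes higher. Higher genes were 49.6% of calls with TMM and 25.3% with that scaling, which turned HADHB (-0.19), ACADVL (-0.19), CPT1A (-0.084) and ECHS1 (-0.087). With a library left out, HADHB ranged from -0.018 (without vehicle replicate 3) to 0.041, ACADM from -0.049 to 0.017 (without cytokine replicate 1) and ACADVL from -0.019 (without vehicle replicate 2) to 0.063, and the cause was not tested. DESeq2 with its own filter called 3365 genes lower, against 5140 in the edgeR fit. The single higher call, ECHS1, became 0 with scaling by library size alone, DESeq2, no filter on low counts, the replicate block and an adjusted p of 0.01, and was 0 to 1 when a library was left out. Of 45 other named genes, 37 kept call and direction, 8 lost the call in at least 1 alternative and 0 turned.

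HADH stood at 32.2 CPM per kilobase with cytokines and 88.8 with vehicle by the longest transcript, and at 110.1 with cytokines and 304 with vehicle by the principal transcript, a length added after the data were seen. Its share of the 10 genes was 7.93% with cytokines and 18.3% with vehicle by the longest transcript, and 21.9% with cytokines and 42.3% with vehicle by the principal one. Same-numbered libraries did not deviate together (correlations of 0.012, -0.047 and -0.050), so the numbers were not taken as pairs. The replicate block gave 5001 genes higher and 5097 lower, with 4 of the 10 genes lower, and not every library correlated best with its own number. At the lowest depth, vehicle replicate 1, CPT1A rested on 52 counts.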
